A study of Homo sapiens with 18 samples.

Results

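Newly made RNA of genes of the actin cytoskeleton was followed in 18 libraries from MDA-MB-453 cells, with and without the BET degrader JQ1-VHL. The 10 genes were listed by name (ACTB, ACTG1, PFN1, CFL1, MYL6, MYL12A, MYL12B, ACTN4, MYH9 and TMSB10). No cut-off on a measured value was used, but the list was drawn up with earlier results of these data known. Of the 10, 9 had values in the deposited table, which held 12755 gene IDs, and all 9 were among the 10191 genes tested. TMSB10, an actin monomer-binding thymosin, had no entry and gets no value here. The table gives several numbered intervals per gene, and a gene's value is the sum over its intervals.

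Actin monomers polymerise into filaments that shape the cell, carry adhesion and, with nonmuscle myosin, generate contraction. ACTB and ACTG1 encode the cytoplasmic β- and γ-actins. PFN1 (profilin) binds monomers and feeds them to growing ends, while CFL1 (cofilin) severs and depolymerises old filaments. MYH9 is the heavy chain of nonmuscle myosin IIA. MYL12A and MYL12B are its regulatory light chains and MYL6 is the essential light chain. ACTN4, an α-actinin, crosslinks filaments. Several of these genes, the actin genes among them, are known targets of serum response factor (SRF), whose coactivators MRTFA and MRTFB bind monomeric actin.

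MDA-MB-453 is an established luminal breast cancer line. JQ1-VHL joins the BET bromodomain ligand JQ1 to a ligand of the VHL ubiquitin ligase, so that BET proteins, which bind acetylated chromatin, are degraded. Cells of both arms received 0.1 mM 4-thiouridine for the last 60 min of a 3 h exposure to JQ1-VHL or to DMSO, the solvent. The groups were JQ1-VHL nuclear, JQ1-VHL cytoplasmic, JQ1-VHL total, DMSO nuclear, DMSO cytoplasmic and DMSO total RNA, with 3 libraries each. The fractions were parted with 1 mg/ml digitonin, and poly(A)-selected RNA was read as 150 bp pairs. The sample titles name the drug dBET, and the name used here is that of the series description. Iodoacetamide makes incorporated 4-thiouridine read as a T-to-C change, so T-to-C reads mark RNA made during the label. The labels do not say whether replicates were separate cultures, so each p-value speaks only of the scatter among these libraries, which may be technical.

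Values are T-to-C reads divided by 1 factor per library, an ERCC factor per the name of the table, and are called units. ERCC RNA was added by mass of RNA, so units count new reads per mass of recovered RNA, and fewer cells and less RNA per cell cannot be told apart. The libraries held 1.58 to 6.77 M recovered T-to-C reads (M, mega), and 1 read was worth 0.470 to 2.75 units. JQ1-VHL nuclear replicate 3 held the fewest reads. The summed units of the DMSO cytoplasmic libraries ran from 1.80 to 18.7 M, and DMSO total replicate 1 held 10.8 M against 2.78 and 3.31 M in the other DMSO total libraries. Of 10 luminal and apocrine markers all 10 were tested, although PIP, a secreted apocrine protein gene, was at 0 in the JQ1-VHL nuclear and cytoplasmic libraries. Of 6 basal or myoepithelial markers 2 were in the table, of 6 muscle markers 2, of 5 fibroblast markers 1 and of 4 blood markers 0. Because the libraries of a group differed this much in their sums, each change is given on the ERCC scale and again after rescaling each library by a median-of-ratios factor (7799 genes). "Rescaled" changes are therefore relative to the typical gene and say nothing of the amount of RNA.

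Promoter windows are shown for ACTG1 and MYL6, an actin gene and the light chain gene, because their nuclear shares of new RNA stood on opposite sides: higher for ACTG1 and lower for MYL6 in every JQ1-VHL library. RefSeq (GRCh38.p14) gave a window of 300 bases, 250 before and 50 after the transcription start, for 9 of the 10 genes, ACTB not among them, with 14 windows in all. Capitals mark the serum response element (CArG box) and the motif CCAAT on either strand, and both sequences run 5′ to 3′ on the strand of the gene. The ACTG1 window lies at chr17:81512750-81513049 on the minus strand and the MYL6 window at chr12:56158109-56158408 on the plus strand.
ACTG1: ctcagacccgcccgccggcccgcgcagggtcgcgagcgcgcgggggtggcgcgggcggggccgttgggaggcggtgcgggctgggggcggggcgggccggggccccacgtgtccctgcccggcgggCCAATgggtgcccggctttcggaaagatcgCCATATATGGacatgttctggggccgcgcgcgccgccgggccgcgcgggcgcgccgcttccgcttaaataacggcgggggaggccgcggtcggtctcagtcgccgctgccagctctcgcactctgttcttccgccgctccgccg
MYL6: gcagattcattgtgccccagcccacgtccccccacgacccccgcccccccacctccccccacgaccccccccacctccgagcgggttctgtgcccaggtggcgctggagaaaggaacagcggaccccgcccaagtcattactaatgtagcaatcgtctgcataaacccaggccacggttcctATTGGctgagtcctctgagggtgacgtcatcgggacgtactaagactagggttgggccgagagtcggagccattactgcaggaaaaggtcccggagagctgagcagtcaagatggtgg
The ACTG1 window held a CCAAT motif at -124 and a CArG box at -94, counted from the start, and none of the other 13 windows held a CArG box. The MYL6 window held CCAAT on the reverse strand at -68. Of 35116 RefSeq windows of this length, 1.29% held a CArG box and 34.6% held CCAAT. The other motifs searched on both strands were GGGCGG (45% of all windows), TATAAA (11.5%), CACGTG (7.26%) and TATATAA (2.57%). GGGCGG occurred in 4 places in the ACTG1 window and in 2 places in the MYL6 window, and CACGTG occurred in the ACTG1 window at -145. These are matches of letters and were not tested as binding sites.

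The table does not say what stretch of a gene an interval covers. The numbered intervals were 4 for ACTB, 3 for ACTG1, 2 for PFN1, 1 for CFL1, 3 for MYL6, 5 each for MYL12A and MYL12B, 23 for ACTN4 and 44 for MYH9. In GENCODE 29 the gaps between merged exons number 2 for PFN1, as many as its intervals. They number 23 for ACTN4, whose 23 intervals carry numbers up to 25. For MYH9 they number 43, for ACTB 7 and for CFL1 11. Levels are therefore not per length and are not compared between genes. Reads behind a value ranged from 8868 to 81332 per library for ACTB, but from 4 to 262 for MYL6 and from 28 to 108 for MYL12A. The table therefore does not bear out the word abundant for these light chain genes. CFL1 was also thin in nuclear RNA, with 30 to 78 reads per JQ1-VHL library and 54 to 80 per DMSO library. PFN1 had 45 to 195 reads in the JQ1-VHL nuclear libraries. Intervals 2 and 3 of ACTB differed by 0 to 1.70% in every library, and intervals 23 and 24 of ACTN4 by 0 to 3.95%. Reads may therefore be counted more than once in the sums of these genes. In GENCODE 29 PFN1 overlaps ENO3, CFL1 overlaps MUS81 and ACTN4 overlaps CAPN12 on the opposite strand, all 3 of them in the table, and ACTG1, MYL6, MYL12A and MYL12B overlap antisense genes that are in it. The strand counted is not stated, so reads of such pairs cannot be told apart. GENCODE 29 also names 20 pseudogenes after ACTG1 and 10 after ACTB, none of them in the table. Where reads of near-identical copies went is not known.

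**Figure D1:**
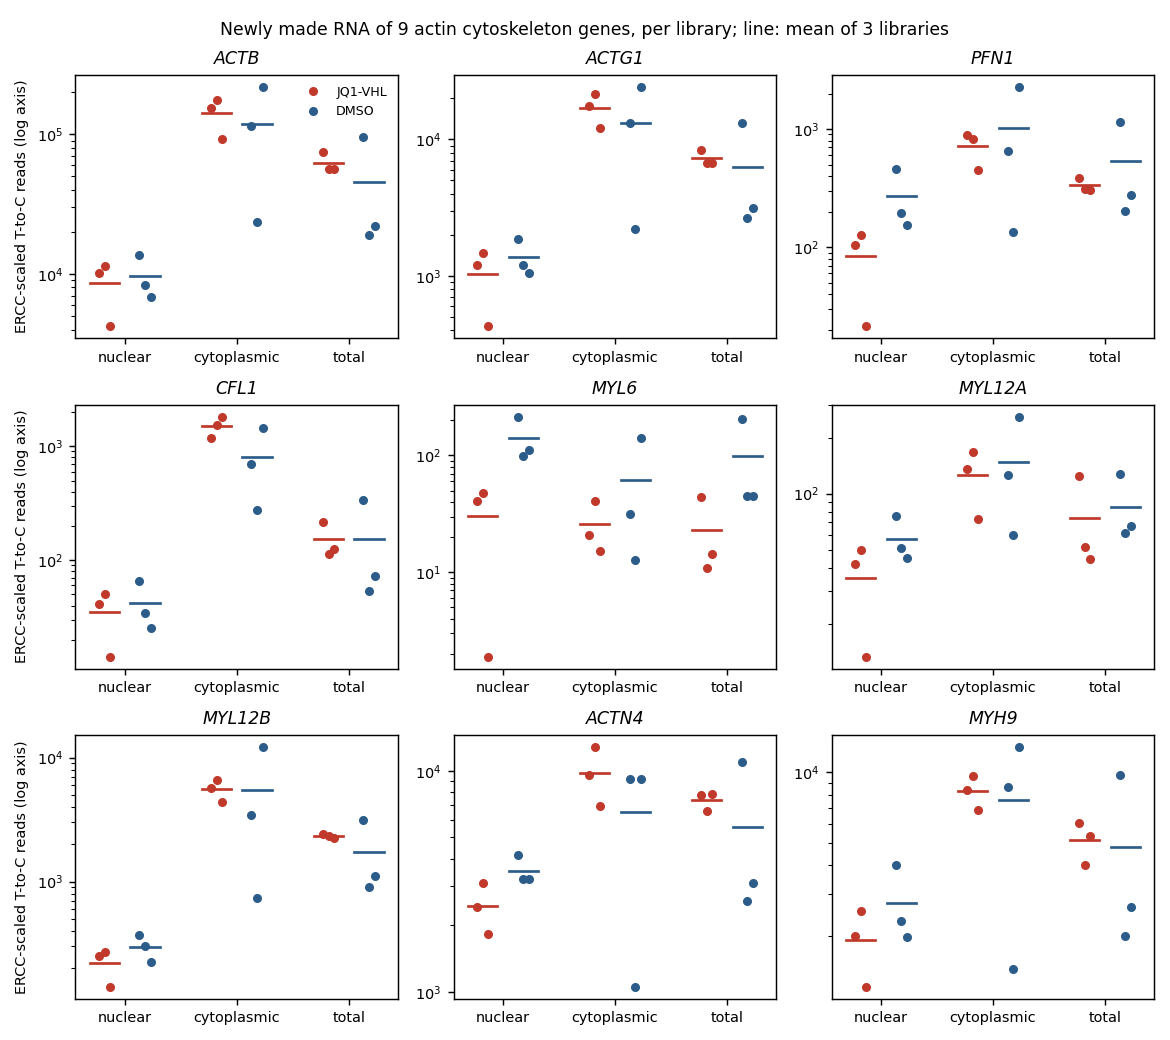
ERCC-scaled T-to-C reads (log axis) of the 9 actin cytoskeleton genes in each of 3 libraries per group, JQ1-VHL in red and DMSO in blue, with lines at the group means. Nuclear points of MYL6 lie at 1.90 to 47.8 units under JQ1-VHL and at 99.9 to 215 units under DMSO, and most other panels show overlapping groups.

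In the nucleus, the fitted changes of both actin genes and of most of their partners lay between -1 and 0 on the log2 ERCC scale, while the median tested gene lay at -1.82. MYL6 was the gene that passed the test, in the lower direction. ACTB had 10131, 11464 and 4214 units in the 3 JQ1-VHL libraries, against 13567, 8372 and 6879 units in the DMSO libraries. The groups overlapped, and the lowest value was that of JQ1-VHL replicate 3. The fitted log2 change of ACTB was -0.22 ± 0.74 (SE, limma adjusted p = 0.779). ACTG1 had 1209.6, 1468 and 428 units under JQ1-VHL and 1876, 1195 and 1050.1 units under DMSO, again with overlap (log2 change -0.54 ± 0.78, limma adjusted p = 0.533). Of the 9 genes, 0 were called higher and 1 lower, where 0.177% of all genes were called higher and 33.7% lower. The median change of the 9 genes was -0.54.

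The gene called lower was MYL6. Its nuclear values were 41.0, 47.8 and 1.90 units under JQ1-VHL, against 215, 99.9 and 112 units under DMSO. Every JQ1-VHL library lay below every DMSO library. The lowest value stood on 4 reads in JQ1-VHL replicate 3. The log2 change was -2.90 ± 1.02 (limma adjusted p = 0.0215). Without JQ1-VHL nuclear replicate 3 it was -1.58 (limma adjusted p = 0.35), and without DMSO nuclear replicate 1 it was -2.56 (limma adjusted p = 0.14). edgeR on the recovered reads gave -2.23 with an adjusted p of 0.078. DESeq2 on the ERCC scale did call MYL6 lower, as it did 4140 of all 10191 genes.

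PFN1 came next. It had 104, 126 and 21.4 units under JQ1-VHL and 463, 196 and 155 units under DMSO, and the groups did not overlap. Its log2 change was -1.86 ± 0.84, near the median of all genes, and was not called (limma adjusted p = 0.0677). The nuclear changes of CFL1 (-0.30 ± 0.88), MYL12A (-0.85 ± 0.95), MYL12B (-0.46 ± 0.81), ACTN4 (-0.56 ± 0.78) and MYH9 (-0.53 ± 0.78) were within their errors, with limma adjusted p from 0.428 to 0.751. For these 5 genes the values of both treatments overlapped except in ACTN4. ACTN4, the crosslinker, had 2410.1, 3093 and 1825 units under JQ1-VHL against 4145, 3239 and 3224 units under DMSO. MYL12A overlapped by 1 library on each side, with 42.0, 49.7 and 13.3 units under JQ1-VHL against 75.3, 51.1 and 45.1 units under DMSO. The share of all tested genes without overlap in nuclear RNA was not counted. The lack of overlap in MYL6, PFN1 and ACTN4 is therefore not read as particular to them.

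After rescaling, 6 of the 9 genes were higher under JQ1-VHL in the nucleus and 0 were lower, where 18.2% of all genes tested were higher and 12.6% lower, and all 6 had a fitted change below 0 on the ERCC scale. ACTB had 20836, 17103 and 24121 rescaled units under JQ1-VHL, against 5824, 7293 and 6580 rescaled units under DMSO. The lowest JQ1-VHL library thus stood above the highest DMSO library. Its rescaled log2 change was 1.65 ± 0.16 (limma adjusted p = 3.16e-06). CFL1 followed with 1.52 ± 0.34 (limma adjusted p = 0.00284), then MYL12B with 1.41 ± 0.28 (0.00135), MYH9 with 1.35 ± 0.21 (0.000173), ACTG1 with 1.33 ± 0.16 (2.03e-05) and ACTN4 with 1.32 ± 0.27 (0.00174). These genes encode both actins, cofilin, a regulatory light chain, the myosin IIA heavy chain and the crosslinker. MYL12A reached 0.97 ± 0.38 and was not called (limma adjusted p = 0.0604). PFN1 was at -0.01 ± 0.27 and MYL6 at -1.20 ± 0.62, neither called (limma adjusted p = 0.98 and 0.145). Without JQ1-VHL nuclear replicate 3 the rescaled value of MYL6 was -0.26, and over the 6 libraries left out in turn it lay between -1.70 and -0.26. The median of the 9 rescaled changes was 1.33, against -0.01 over all genes tested.

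A share of a library's T-to-C reads needs no fit. It is relative to all reads and not to the typical gene, so its change can differ in size from the rescaled one. ACTB took 0.662% (95% Wilson interval 0.652 to 0.671), 0.563% (0.555 to 0.571) and 0.560% (0.548 to 0.571) of the reads in the JQ1-VHL nuclear libraries. In the DMSO nuclear libraries it took 0.279% (0.275 to 0.284), 0.328% (0.323 to 0.333) and 0.295% (0.291 to 0.300). The Wilson intervals cover counting error of independent reads only, because PCR copies of 1 molecule cannot be recognised without molecular identifiers. Reads of ACTB that were counted more than once in its sum would make them too narrow. The share was higher in every JQ1-VHL library than in every DMSO library. All 9 genes together took 1.01 ± 0.0658% of nuclear reads under JQ1-VHL and 0.572 ± 0.0562% under DMSO (SD, n = 3 each). MYL6 took 0.00267%, 0.00235% and 0.000252% under JQ1-VHL against 0.00442%, 0.00391% and 0.00481% under DMSO. Its share was lower in every JQ1-VHL library.

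**Figure D2:**
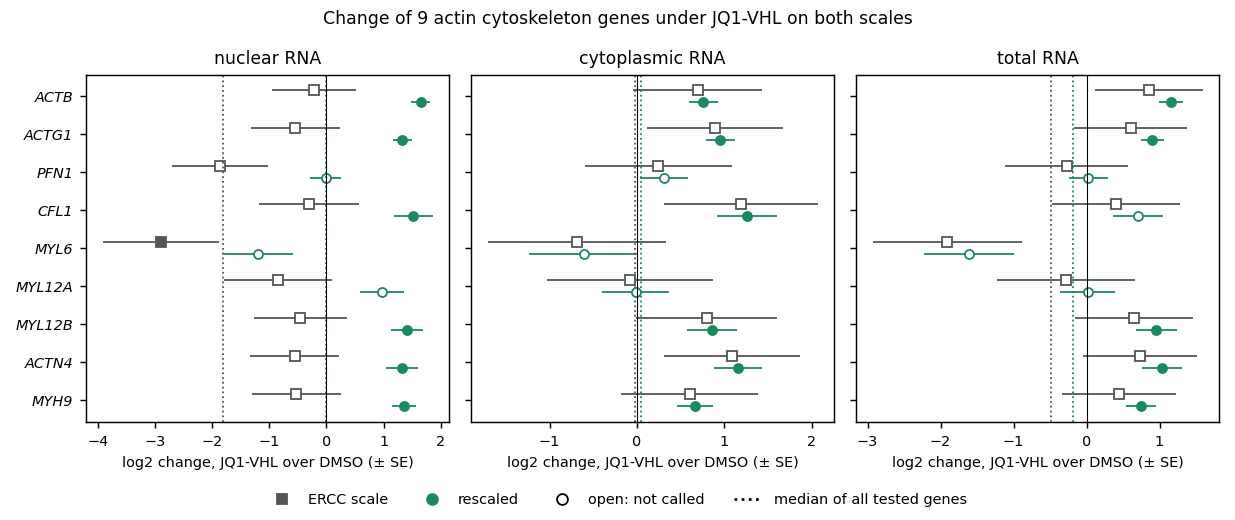
log2 change (JQ1-VHL over DMSO, ± SE) of the 9 genes in nuclear, cytoplasmic and total RNA, as grey squares on the ERCC scale and green circles after rescaling, filled where called. Dotted lines mark the median of all tested genes. In nuclear RNA 6 filled circles lie between 1.32 and 1.65 while the square of ACTB lies at -0.22, and the only filled square is MYL6 at -2.90.

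In the cytoplasm, ACTB had 154874, 174933 and 92334 units under JQ1-VHL, against 113796, 23699 and 219443 units under DMSO. The DMSO libraries spread 9.26-fold and enclosed the JQ1-VHL libraries. Of the 9 genes, 0 were called in either direction by limma, edgeR or DESeq2 on that scale, where 0.226% of all genes were called higher and 3.67% lower. The unadjusted limma p was under 0.05 for 0 of the 9 and for 1346 of all genes. On the log2 ERCC scale the fitted differences were 0.69 ± 0.74 for ACTB, 0.89 ± 0.78 for ACTG1, 1.19 ± 0.88 for CFL1, 1.09 ± 0.78 for ACTN4, 0.80 ± 0.81 for MYL12B and 0.60 ± 0.78 for MYH9. Those of PFN1 (0.24 ± 0.84), MYL12A (-0.08 ± 0.95) and MYL6 (-0.69 ± 1.02) lay nearer to 0 or below it. The limma adjusted p ranged from 0.701 to 0.988 over the 9 genes. The median of the 9 genes was 0.69, against -0.02 over all genes tested. On the same scale edgeR and DESeq2 each put these medians at 0.12 and -0.45, so the size depended on the method.

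After rescaling, 6 of the 9 genes were higher in the cytoplasm and 0 lower, where 14.8% of all genes were higher and 15.9% lower. They were the genes called in the nucleus. CFL1 changed by 1.26 ± 0.34 (limma adjusted p = 0.0103), ACTN4 by 1.15 ± 0.27 (0.00499), ACTG1 by 0.95 ± 0.16 (0.000552), MYL12B by 0.86 ± 0.28 (0.0286), ACTB by 0.76 ± 0.16 (0.00271) and MYH9 by 0.67 ± 0.21 (0.0229). The call was lost for MYL12B without DMSO replicate 1 or 2 or JQ1-VHL replicate 3, for MYH9 without DMSO replicate 2 or JQ1-VHL replicate 3, and for CFL1 without DMSO replicate 1 (limma adjusted p from 0.054 to 0.13). PFN1 (0.31 ± 0.27), MYL12A (-0.01 ± 0.38) and MYL6 (-0.61 ± 0.62) were not called. ACTB had 111494, 110439 and 117177 rescaled units under JQ1-VHL against 60363, 67277 and 73608 rescaled units under DMSO, with no overlap. As a plain share of reads the groups lay closer, with 1.38 ± 0.143% of cytoplasmic reads under JQ1-VHL and 1.27 ± 0.0813% under DMSO (SD, n = 3 each). These shares overlapped between the treatments.

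In total RNA, ACTB had 74776, 56382 and 56198 units under JQ1-VHL and 96139.7, 18847 and 21956 units under DMSO. DMSO replicate 1 was the highest of the 6 libraries and the other DMSO libraries the lowest. By limma, 0 of the 9 genes were called on the ERCC scale, where 0.245% of all genes were called higher and 2.79% lower and the unadjusted p was under 0.05 for 0 of the 9 and for 1714 of all genes. edgeR and DESeq2 on that scale also called 0 of the 9. The fitted limma differences were 0.86 ± 0.74 for ACTB, 0.60 ± 0.78 for ACTG1 and -1.91 ± 1.02 for MYL6. The limma median of the 9 genes was 0.45, against -0.49 over all genes, where edgeR and DESeq2 each gave 0.10 and -0.78. After rescaling, 5 genes were higher and 0 lower, where 12.2% of all genes were higher and 18.4% lower. These were ACTB (1.16 ± 0.16, limma adjusted p = 0.000234), ACTN4 (1.03 ± 0.27, 0.0108), MYL12B (0.96 ± 0.28, 0.0182), ACTG1 (0.90 ± 0.16, 0.00127) and MYH9 (0.75 ± 0.21, 0.0139). CFL1 was at 0.71 ± 0.34 (limma adjusted p = 0.117) and MYL6 at -1.61 ± 0.62 (0.0552). Without JQ1-VHL total replicate 3 the count was 2, with MYL12B, ACTN4 and MYH9 no longer called. The MYL12B call was also lost without DMSO replicate 1 or JQ1-VHL replicate 2, and that of MYH9 without DMSO replicate 2. ACTB took 1.09 ± 0.114% of total reads under JQ1-VHL and 0.743 ± 0.126% under DMSO (SD, n = 3 each), without overlap.

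Batch numbers in the labels pair the libraries, and each pair gives its own change. The log2 ratio of ACTB on the ERCC scale was -0.42, 0.45 and -0.71 in the nuclear pairs, which was 1.81, 1.18 and 1.71 above the median tested gene of the pair. For MYL6 it was -2.36, -1.05 and -5.28, which was -0.13, -0.33 and -2.86 from that median. The sign of the ACTB ratio thus differed between pairs while its side of the median gene did not. ACTB, ACTG1, CFL1, MYL12B, ACTN4 and MYH9 lay above the median gene in all 9 pairs of the 3 fractions, and MYL6 lay below it in all 9. PFN1 and MYL12A lay on both sides. The share of all tested genes that kept to 1 side in all 9 pairs was not counted. Fractions of the same number share a batch, so the 9 pairs may not be independent. The number of the 9 genes above the median was 8, 8 and 7 in the nuclear pairs, 8, 7 and 7 in the cytoplasmic pairs and 7 in each pair of total RNA.

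**Figure D3:**
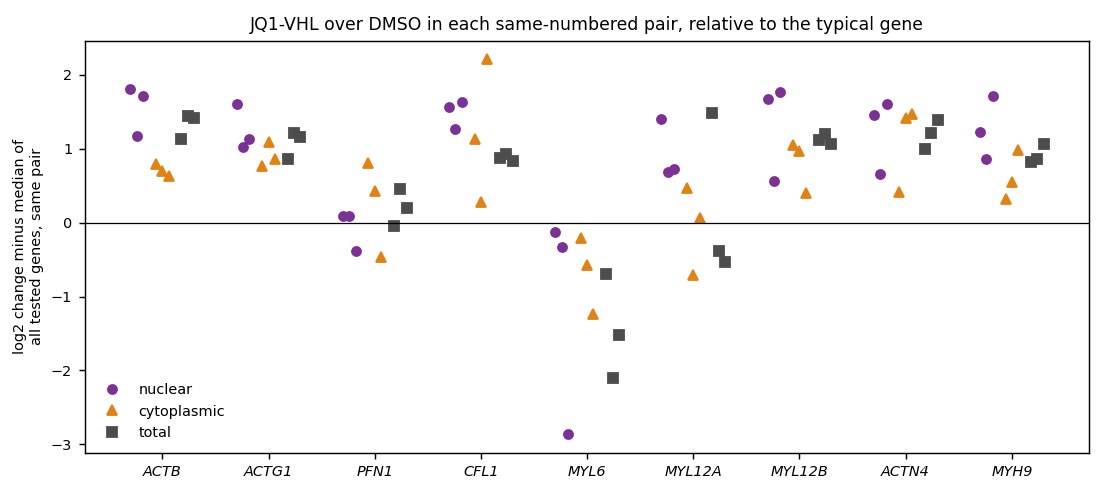
log2 change (JQ1-VHL over DMSO) of each gene in each same-numbered pair, less the median of all tested genes in that pair, for nuclear (circles), cytoplasmic (triangles) and total RNA (squares). Points of ACTB lie above 0 in every pair and those of MYL6 below 0, down to -2.86 in the third nuclear pair.

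The nuclear and cytoplasmic effects of JQ1-VHL were compared within 1 model. On the ERCC scale the difference was called for 0 of the 9 genes by limma, edgeR or DESeq2, with ACTB at -0.92 ± 1.04 (limma adjusted p = 0.541). Limma called 0.0% of all genes in either direction, with 0 of the 9 and 1564 of all genes at an unadjusted p under 0.05. After rescaling ACTB was at 0.89 ± 0.23 (limma adjusted p = 0.0459), opposite in direction to the ERCC scale and the only call among the 9 genes, where 1.44% of all genes were called higher and 1.38% lower. The rescaled call was lost with edgeR's TMM scaling (0.69, adjusted p = 0.13) and in 9 of 12 fits that left out 1 library. MYH9 (0.68 ± 0.30) and MYL12A (0.98 ± 0.54) were not called after rescaling.

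Nuclear and cytoplasmic new RNA were then compared within a treatment. Under JQ1-VHL, 7 of the 9 genes were lower in nuclear RNA on the ERCC scale and 0 higher, where 28.8% of all genes were lower and 3.01% higher. CFL1 changed by -5.54 ± 0.88 (limma adjusted p = 4.89e-08), MYL12B by -4.68 ± 0.81 (5.69e-07), ACTG1 by -4.18 ± 0.78 (3.2e-06), ACTB by -4.11 ± 0.74 (1.29e-06), PFN1 by -3.38 ± 0.84 (0.00053), MYH9 by -2.17 ± 0.78 (0.0215) and ACTN4 by -1.99 ± 0.78 (0.0361). The calls of MYH9 and ACTN4 were lost in 4 of 6 fits that left out 1 library each, namely JQ1-VHL cytoplasmic replicate 1 or 2 or JQ1-VHL nuclear replicate 1 or 3 (limma adjusted p from 0.055 to 0.14). MYL12A (-1.92 ± 0.95, adjusted p = 0.108) and MYL6 (-0.45 ± 1.02, 0.78) were not called by limma. Under DMSO, 4 genes were lower and 0 higher, where 5.92% of all genes were lower and 14.7% higher. These were CFL1 (-4.04 ± 0.88), MYL12B (-3.43 ± 0.81), ACTB (-3.19 ± 0.74) and ACTG1 (-2.75 ± 0.78), with limma adjusted p up to 0.00598.

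Among the 9 genes CFL1 differed most between the fractions on both scales and under both treatments. It had 41.0, 50.4 and 14.3 units in JQ1-VHL nuclear libraries against 1192, 1525 and 1817 units in JQ1-VHL cytoplasmic libraries. Each nuclear library was far below each cytoplasmic one. Only 1 interval of CFL1 is in the table, so this describes that interval. After rescaling, 7 genes were lower in the nucleus under DMSO, where 23.8% of all genes were lower and 33.0% higher, and MYL6 was higher (1.61 ± 0.62, limma adjusted p = 0.0338). That MYL6 call was lost in 5 of 6 fits that left out 1 library, with values from 1.19 to 1.89, and held without DMSO cytoplasmic replicate 3. The MYL12A call, among the 7, was lost without DMSO cytoplasmic replicate 2. Under JQ1-VHL 6 were lower and 0 higher after rescaling, where 26.0% of all genes were lower and 38.7% higher, and the MYH9 call was lost without JQ1-VHL cytoplasmic replicate 3 or JQ1-VHL nuclear replicate 1 or 2. MYL6 stood at 1.02 ± 0.62 there (adjusted p = 0.156), with a sign opposite to that on the ERCC scale.

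Ratios between paralogs within a library do not depend on the scale. ACTG1 stood at 11.9%, 12.8% and 10.1% of the ACTB value in JQ1-VHL nuclear libraries, against 13.8%, 14.3% and 15.3% in DMSO nuclear libraries. In total RNA it stood at 11.3%, 11.9% and 11.9% under JQ1-VHL against 13.7%, 14.0% and 14.2% under DMSO. In both, every JQ1-VHL library was below every DMSO library. The log2 differences were -0.32 in nuclear and -0.26 in total RNA (exact two-sided permutation p = 0.1 each, the smallest that 3 against 3 can give, and 0.2 adjusted over 10 tests). In the cytoplasm the ratio was 11.4%, 12.3% and 13.04% under JQ1-VHL and 11.6%, 9.35% and 11.1% under DMSO, with overlap (log2 difference 0.20, exact permutation p = 0.2). With the highest intervals alone the nuclear, total and cytoplasmic differences were -0.24, -0.18 and 0.22, each without overlap (exact permutation p = 0.1 each). The percentages themselves depend on the intervals summed. The mean nuclear log2 ratio was -2.238 (JQ1-VHL) and -1.995 (DMSO) with the highest intervals, against -3.111 and -2.792 with the sums. The ratio is therefore compared between libraries and not read as a level of ACTG1 against ACTB.

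MYL12A and MYL12B, neighbours on chromosome 18, differed between the fractions. MYL12A stood at 16.8%, 18.4% and 9.36% of MYL12B in JQ1-VHL nuclear libraries, against 2.40%, 2.54% and 1.66% in JQ1-VHL cytoplasmic libraries. Under DMSO it stood at 20.4%, 16.9% and 20.2% in nuclear libraries, against 3.61%, 8.08% and 2.12% in cytoplasmic libraries. The nuclear values were all above the cytoplasmic ones under each treatment, by 2.72 (JQ1-VHL) and 2.27 (DMSO) on the log2 scale (exact permutation p = 0.1 each, 0.2 adjusted over 10 tests). With the highest interval of each gene alone the differences were 1.41 (JQ1-VHL) and 1.82 (DMSO), again without overlap. Between treatments the nuclear ratio differed by -0.42 and overlapped (exact permutation p = 0.2). With the highest intervals alone it differed by -1.0 and did not overlap (exact permutation p = 0.1, the smallest that 3 against 3 can give).

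**Figure D4:**
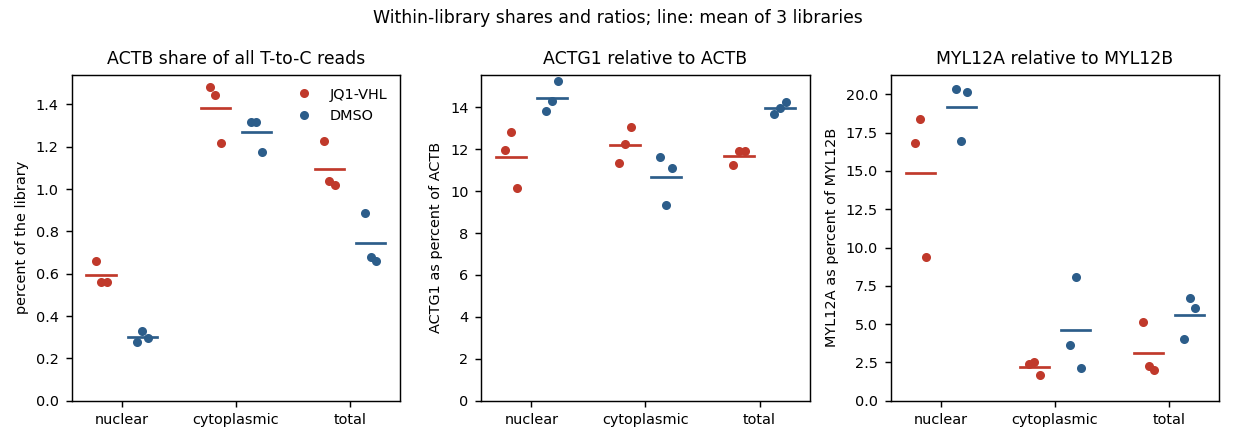
Within-library quantities in each library, JQ1-VHL in red and DMSO in blue, with lines at the means of 3 libraries: the ACTB share of T-to-C reads (%), ACTG1 as a percent of ACTB, and MYL12A as a percent of MYL12B. ACTB shares of nuclear reads are 0.560 to 0.662% under JQ1-VHL and 0.279 to 0.328% under DMSO, and MYL12A relative to MYL12B is higher in nuclear than in cytoplasmic RNA.

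The sums hide differences along the longer genes. ACTN4 had 23 intervals with a nuclear value, of which 22 had a log2 ratio of group means below 0, with a median of -0.99 and a range of -2.53 to 0.10. The lowest, interval 6, stood on only 7 JQ1-VHL and 34 DMSO reads over the 3 libraries of each group. Interval 22 stood on 2526 and 3374. The median over 82099 intervals of the whole table was -1.81, and 21 of the 23 ACTN4 intervals lay above it. The best-covered ACTN4 intervals, 22, 23 and 24, were at -0.52, -0.45 and -0.46 in the nucleus and at 0.58, 0.57 and 0.59 in the cytoplasm. Intervals 23 and 24 differed by at most 3.95% in any library and may share reads, so their values may not be separate measurements. MYH9 had 43 of 44 intervals below 0 in the nucleus, with a median of -1.07 and a range of -2.66 to 0.00, and 36 of the 44 lay above the median of the table. The lowest MYH9 interval, 26, stood on 19 JQ1-VHL and 109 DMSO reads. Its best-covered interval, 19, was at -0.30 in the nucleus and at 0.15 in the cytoplasm. ACTG1 showed the same spread on a small scale, with nuclear ratios of -0.35 and -0.39 for intervals 1 and 2 and of -0.94 for interval 3. These ratios have no test.

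**Figure D5:**
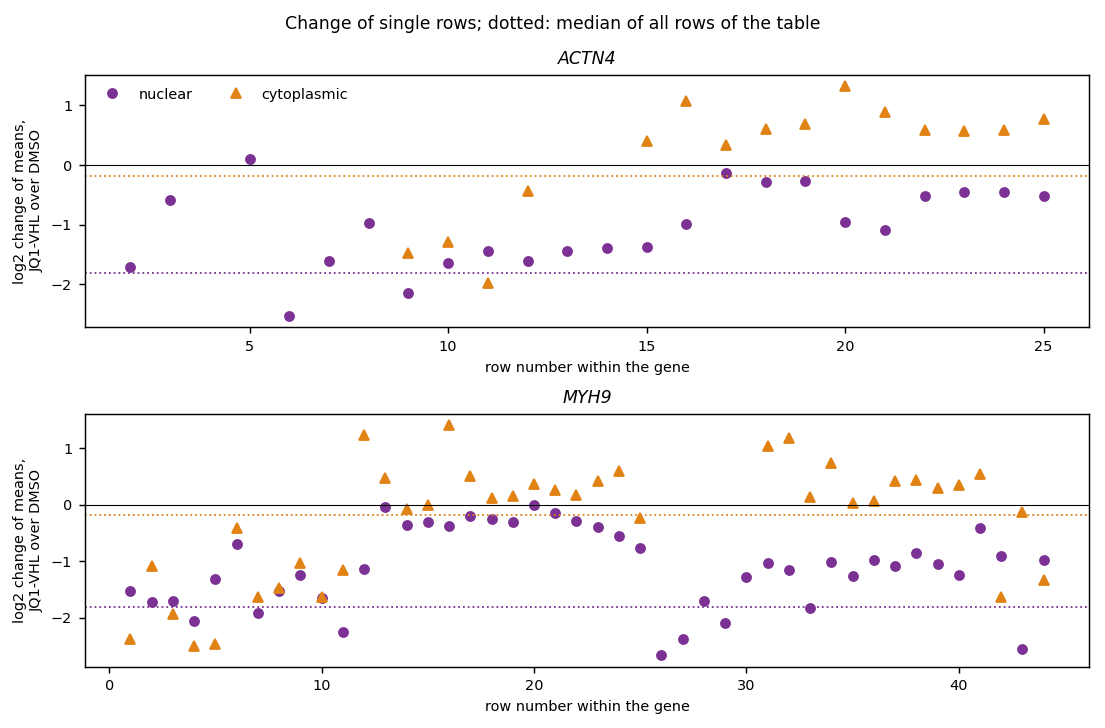
log2 ratio of group means (JQ1-VHL over DMSO) for each numbered interval of ACTN4 and MYH9 in nuclear (circles) and cytoplasmic RNA (triangles), for intervals with at least 30 reads. Dotted lines mark the medians of all intervals of the table, -1.81 in nuclear and -0.18 in cytoplasmic RNA. Intervals 22 to 24 of ACTN4 lie near -0.5 in nuclear RNA while its lowest interval lies at -2.53, on 7 JQ1-VHL and 34 DMSO reads.

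The wider actin machinery was counted from 6 lists with 81 genes, of which 69 were tested. On the ERCC scale in nuclear RNA 15 of the 69 were lower and 0 higher, where 33.7% of all genes were lower and 0.177% higher, so lower calls were not more frequent in the lists than over all genes. Their median was -1.23, against -1.82 for all genes. After rescaling 33 were higher and 6 lower, where 18.2% of all genes were higher and 12.6% lower, with a median of 0.63 against -0.01 for all genes. In the cytoplasm 0 were higher and 1 lower on the ERCC scale, where 0.226% of all genes were higher and 3.67% lower (median 0.54, against -0.02 for all genes). After rescaling 28 were higher and 4 lower there, where 14.8% of all genes were higher and 15.9% lower (median 0.58, against 0.05). In total RNA 0 were called in either direction on the ERCC scale, where 0.245% of all genes were higher and 2.79% lower (median 0.22, against -0.49). After rescaling 25 were higher and 7 lower in total RNA, where 12.2% of all genes were higher and 18.4% lower (median 0.52, against -0.19). The genes named below as higher after rescaling are examples chosen after their values were seen, and each had a fitted nuclear change below 0 on the ERCC scale. In lists with no call in the cytoplasm the gene with the highest mean was CTTN (0.69), CAPZA1 (0.68), TPM4 (0.42), CTNNA1 (1.01) or MRTFA (0.65), on the log2 ERCC scale. In total RNA the same genes were at 0.62, 0.56, 0.64, 0.71 and -0.16, and DSTN was at 0.64.

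Among monomer-binding and turnover genes, 0 of 13 were higher and 5 lower in the nucleus on the ERCC scale, a count near the 33.7% of all genes called lower. The list median of -1.88 was likewise close to the -1.82 of all genes. Those called were the kinases LIMK1 (-3.87) and LIMK2 (-2.24), which phosphorylate cofilin, the phosphatases SSH1 (-3.08) and SSH3 (-2.33), which dephosphorylate it, and WDR1 (-2.60), which works with cofilin in disassembly. SSH1 was also the single gene of all lists called lower in the cytoplasm (-3.81 ± 1.10 on the log2 ERCC scale, limma adjusted p = 0.0245). Rescaled nuclear values of 3 genes were higher, where 18.2% of all genes were, among them CAP1 (1.31), whose product recycles monomers, and DSTN (1.12), a relative of cofilin, and LIMK1 was lower (-2.88).

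Among Arp2/3 genes, which nucleate branched filaments, 4 of 14 were lower in the nucleus on the ERCC scale and 0 higher, again near the 33.7% of all genes, with a median of -1.46. They were the subunit gene ARPC5 (-3.96) and the activator genes BRK1 (-2.79), WASF1 (-2.66) and WASL (-2.25). After rescaling 6 were higher and ARPC5 was lower (-2.95), where 18.2% of all genes were higher and 12.6% lower. The 6 included ACTR2 (1.27) and ARPC3 (1.27), while CTTN, the cortactin gene, was at 1.04 after rescaling and -0.83 on the ERCC scale. Of 11 capping and elongation genes, CAPZB was lower on the ERCC scale (-2.12) and 5 were higher after rescaling, where 33.7% of all genes were lower on the ERCC scale and 18.2% higher after rescaling. The 5 included FMNL2 (1.68) and DIAPH3 (1.42), formin genes.

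Filament side-binding and crosslinking genes had the most rescaled calls, with 13 of 19 higher and 2 lower in the nucleus, where 18.2% of all genes were higher and 12.6% lower. Their rescaled median was 1.02, and on the ERCC scale 2 were lower and the median was -0.85. SPTAN1 (1.39), FLNA (1.20) and TAGLN2 (1.18) were among the higher ones. They encode a spectrin, a filamin and a transgelin. TPM1, a tropomyosin gene, fell by 5.43 on the ERCC scale and fell by 4.46 after rescaling. ACTN1, the close relative of ACTN4, fell by 3.26 on the ERCC scale (limma adjusted p = 0.00483) and fell by 1.43 after rescaling (limma adjusted p = 0.00258). The rescaled nuclear changes of the α-actinin genes ACTN4 and ACTN1 were thus of opposite sign and both called, while both were below 0 on the ERCC scale.

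Of 9 linker genes ZYX, a focal adhesion gene, was lower on both scales (-3.69 and, rescaled, -2.06), and 5 were higher after rescaling, among them CTNNA1 (1.54), where 33.7% of all genes were lower on the ERCC scale and, after rescaling, 18.2% higher and 12.6% lower. Of 4 SRF-related genes, SRF itself (-3.06) and MRTFB (-3.07) were lower in the nucleus on the ERCC scale, with limma adjusted p of 0.0118 and 0.0127. Over all genes 33.7% were lower. After rescaling MRTFB was again lower (-1.26), SRF did not pass (-1.33, limma adjusted p = 0.074), and CCN1, a secreted matrix protein gene, was higher (1.45).

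The profile of ACTB over the 18 libraries was compared with those of 5525 genes with a mean of at least 100 units. On rescaled log2 values the 5 closest genes outside the list were NUDC (Pearson r = 0.994, Spearman rank correlation 0.984), PSMD11 (0.994 and 0.973), PARP1 (0.994 and 0.973), TCP1 (0.994 and 0.975) and PSMF1 (0.994 and 0.977). Of the actin cytoskeleton genes, ACTG1 ranked 6 (r = 0.993), MYL12B 134 (0.979), CFL1 916 (0.918), MYH9 1496 (0.836), PFN1 1542 (0.826) and ACTN4 2150 (0.628). The 18 points fall into 6 groups of 3 and share libraries, so these are descriptions with no p.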

How the data were processed

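T-to-C reads of 18 SLAM-seq libraries were analysed. The deposited table holds signal values, T-to-C reads per numbered interval divided by 1 factor per library, an ERCC factor per the name of the table the authors deposited. The tools named per the submitters' processing notes are HTSeq, HISAT2, DESeq2, Trimmomatic 0.39 and bcl2fastq, with dm3, hg19 and GRCh37 as builds, none with a role. T-to-C calling, strand and filters are not given in the sources used here. Of all values, 100% were whole multiples of the value of 1 read (tolerance 0.01 read), which gave back the read counts.

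Intervals (98665) were summed per gene ID, and 12512 of 12755 IDs matched a symbol. Genes with a mean of at least 10 units over the 18 libraries were tested with limma 3.58.1 (R 4.3.3, trend and robust eBayes) on log2(value + 1), which understates changes of low genes. The fit gave 1 mean to each of 6 groups, two-sided, with Benjamini-Hochberg adjustment over 10191 genes at 0.05. For rescaling, each library was divided by its median-of-ratios factor. Ratios used exact permutation tests. edgeR 4.0.16 and DESeq2 1.42.0 on recovered reads, other pseudocounts (0.1 and 10), no filter, a batch block, the highest interval of each gene and leaving out each library were alternatives. Where a group kept 2 libraries, the spread was shared with the other groups.

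The labels' batch number equals the replicate number and pairs the libraries. Same-numbered deviations correlated at 0.274, -0.145 and 0.287 in nuclear, 0.062, -0.053 and 0.020 in cytoplasmic and 0.222, 0.075 and 0.156 in total RNA. The fits were tested on simulated data for the nuclear comparison. Limma on the ERCC scale recovered 41% of 100 simulated log2 changes of 1 and 96% of 100 of size 2. The simulated libraries lacked the differences in summed units seen within the real groups, so these percentages do not carry over to these data. All 10 listed genes are named, and genes of the wider lists where called on the ERCC scale between treatments, otherwise the gene with the highest mean. Of wider-list genes called only after rescaling, examples are named. The genes and lists were chosen with earlier results of these data known. A further list of actin-related genes is not reported here.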

Additional observations from a re-analysis of the deposited data

Results flagged for a closer look

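The effect of JQ1-VHL on ACTB differed between nuclear and cytoplasmic RNA after rescaling, by 0.89 ± 0.23 on the log2 scale (limma adjusted p = 0.0459). ACTB changed by 1.65 ± 0.16 in nuclear and 0.76 ± 0.16 in cytoplasmic RNA on that scale. On the ERCC scale the same difference was -0.92 ± 1.04 (limma adjusted p = 0.541), opposite in sign. Leaving out 1 library at a time, it ranged from 0.80 to 1.04 and was called in 3 of 12 cases.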

How the results depend on the processing

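The number of the 9 genes called depended on the scale. In nuclear RNA it was 1 on the ERCC scale, 6 after rescaling and 6 with edgeR's TMM. With edgeR on the ERCC scale it was 0, and with DESeq2 on that scale 1 (MYL6). It was 2 (MYL6 and PFN1) with only the groups of the comparison fitted. Over all 10191 genes TMM called 1513 higher and 1617 lower in nuclear RNA. On the ERCC scale edgeR called 17 of all genes higher and 2578 lower, and DESeq2 26 and 4140. In cytoplasmic RNA it was 0 on the ERCC scale, 6 after rescaling and 6 with TMM, and in total RNA 0, 5 and 6. TMM called 1527 of all genes higher and 1460 lower in cytoplasmic RNA, and 2170 and 1639 in total RNA. For nuclear against cytoplasmic RNA under DMSO it was 4, all lower, and 1 with only those groups. After rescaling and with TMM it was 8 each, of which 7 were lower and 1 (MYL6) was higher. TMM called 3728 of all genes higher and 2356 lower there. For the difference of the effects it was 0, with 1 after rescaling and 0 with TMM, which called 108 of all genes higher and 237 lower. Counts over all genes are not given here for the fits with only the groups compared or with 1 library left out. Leaving out 1 library gave 0 to 2 calls in nuclear RNA, 6 after rescaling. MYL6 lost its call without DMSO nuclear replicate 1 or JQ1-VHL nuclear replicate 3 (0 calls each), and PFN1 was added without JQ1-VHL nuclear replicate 2. Rescaled counts ran from 4 to 7 in cytoplasmic RNA, from 2 to 6 in total RNA and from 0 to 1 for the difference of the effects. On the ERCC scale these 3 counts were 0 in each such case. For nuclear against cytoplasmic RNA the counts ran from 5 to 7 under JQ1-VHL (5 to 8 after rescaling) and from 4 to 6 under DMSO (6 to 8 after rescaling).

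Nuclear changes that were below 0 on the ERCC scale were above 0 after rescaling and with TMM, at 1.65 and 1.47 for ACTB, 1.33 and 1.14 for ACTG1, 1.52 and 1.37 for CFL1, 0.97 and 0.80 for MYL12A, 1.41 and 1.24 for MYL12B, 1.32 and 1.17 for ACTN4 and 1.35 and 1.20 for MYH9. The nuclear minus cytoplasmic effects likewise turned to 0.89 and 0.69 for ACTB, 0.37 and 0.17 for ACTG1, 0.27 and 0.030 for CFL1, 0.98 and 0.87 for MYL12A, 0.55 and 0.44 for MYL12B, 0.17 and 0.038 for ACTN4 and 0.68 and 0.50 for MYH9. In total RNA PFN1 turned to 0.026 and 0.25 and MYL12A to 0.013 and 0.26. For MYL6 between nuclear and cytoplasmic RNA under JQ1-VHL the values were 1.02 and 1.46, and 0.24 with edgeR and with DESeq2 on the ERCC scale. edgeR and DESeq2 on that scale gave -0.50 each for PFN1 in cytoplasmic RNA and -0.0119 and -0.0114 for CFL1 in total RNA, and the highest interval alone gave 0.27 for MYL12A in cytoplasmic RNA.

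Leaving out 1 library also turned the sign of some changes on the ERCC scale. They included cytoplasmic changes that were not near 0, such as those of ACTG1 (0.89) and MYL12B (0.80). In nuclear RNA the ranges were -0.49 to 0.23 for ACTB, -0.89 to 0.0026 for ACTG1 and -0.65 to 0.23 for CFL1. In cytoplasmic RNA they were -0.22 to 1.39 for ACTB, -0.12 to 1.61 for ACTG1, -0.82 to 1.22 for PFN1, -1.46 to 0.23 for MYL6, -0.60 to 0.45 for MYL12A, -0.25 to 1.77 for MYL12B and -0.35 to 1.22 for MYH9. In total RNA they were -0.76 to 0.48 for PFN1, -0.10 to 1.22 for CFL1, -0.74 to 0.043 for MYL12A and -0.0020 to 1.14 for MYH9. Between the fractions ACTN4 ranged from -1.39 to 0.17 under DMSO and MYL6 from -1.16 to 0.87 under JQ1-VHL. After rescaling the ranges were -0.16 to 0.26 for PFN1 in nuclear RNA, -0.29 to 0.39 for MYL12A in cytoplasmic RNA, and -0.078 to 0.15 for PFN1 and -0.32 to 0.26 for MYL12A in total RNA. The difference of the effects ranged from -0.18 to 0.40 for ACTN4, from -0.065 to 0.68 for CFL1 and from -1.08 to 0.35 for MYL6. The ACTG1 to ACTB ratio between nuclear and cytoplasmic RNA under JQ1-VHL ranged from -0.15 to 0.020 (log2). None of the changes that turned was called in its first form, and the causes were not tested. Of the single-gene values under alternatives, 1236 kept their direction and side of the threshold, 49 lost a call, 43 gained one and 76 turned.

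The replicate block left the genes called among the 9 the same in every comparison and on both scales. Over all genes the calls on the ERCC scale were 40 higher and 579 lower with the block, against 23 and 374 without it, in cytoplasmic RNA, and 34 and 549, against 25 and 284, in total RNA. Depth limits MYL6 most, whose lowest value stood on 4 reads, and with 3 libraries a group no exact test could give a p under 0.1.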
